A study of Mus musculus with 8 samples.

Results

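The 10 genes described here encode the collagen hydroxylases and lysyl oxidases of intestinal stromal cells. They were taken by symbol from a table of 24930 genes as the prolyl 4-hydroxylase alpha subunits P4ha1 and P4ha2, the lysyl hydroxylases Plod1, Plod2 and Plod3, and the lysyl oxidases Lox, Loxl1, Loxl2, Loxl3 and Loxl4. All 10 were found and all 10 passed a filter of at least 1 FPKM in at least 2 libraries, with 12927 genes tested in all. FPKM is by its name a level per transcript length and library size. How it was computed here is not stated, and comparisons of levels between genes and libraries rest on that unit.

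The libraries were poly-A RNA of mouse stromal cells with low Pdgfra, recovered as GFP-positive, DAPI-negative cells. The mesenchyme-only group (3 libraries) held such cells seeded in Matrigel with no organoid. The wild-type coculture group (3 libraries) held 50000 of these cells per 20 µl droplet grown for 7 days with control duodenal enteroids, and the BcatGOF coculture group (2 libraries) the same with enteroids carrying β-cateninGOF, a gain-of-function form of the WNT effector β-catenin. All cocultures lacked added EGF, Noggin and R-SPONDIN1. Mouse strain and age, the driver of GFP, the way the β-catenin allele was switched on, and the time and cell number of the mesenchyme-only cultures are not stated in the labels. A kinase inhibitor, SB525334, is named in the design text but on no sample label, so no library was treated as inhibitor-exposed. Nothing says that libraries of a group came from separate animals, so p-values measure the spread between libraries.

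Collagen is modified inside the cell before it is secreted and outside the cell afterwards. In the endoplasmic reticulum, prolyl 4-hydroxylases hydroxylate prolines, which lets the triple helix hold at body temperature, and lysyl hydroxylases hydroxylate lysines, which later carry sugars or take part in cross-links. Both enzyme families need iron, oxygen, 2-oxoglutarate and ascorbate. In the extracellular space the copper-dependent lysyl oxidases oxidise lysines and hydroxylysines of collagen and elastin, and the resulting aldehydes form the cross-links that stiffen a matrix.

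The summed FPKM per library ran from 438585 to 598384, and the read depth behind it is unknown. All 7 stromal markers were at 1 FPKM or more in every library, but BcatGOF replicate 2 stood apart, with a mean log2 level of -0.56 relative to the mesenchyme-only mean against -0.12 to 0.40 elsewhere. Thy1 was at 30 FPKM there and at 117.9 to 191.3 FPKM in the other libraries, and Pdgfra, Pdgfrb and Vim were also lowest there, with Pdgfra at 52.4 FPKM against 86.5 to 134.4 FPKM. Col1a1 was lowest there too, at 1103 FPKM. Dcn and Cd81 went the other way and were highest there, at 5673 and 332.9 FPKM, so the stromal markers did not move together. The 7 leukocyte markers summed to 24.6 to 133 FPKM with 3 or 4 at 1 FPKM or more, mainly Lyz2 and Cd14, while Ptprc was at most 0.0508 FPKM. Of the 5 endothelial markers 0 reached 1 FPKM in any library. The 4 mesothelial markers summed to 2.4 to 18.4 FPKM in cells grown alone, 7.05, 34.4 and 50.4 FPKM with wild-type enteroids and 5.75 and 8.79 FPKM with BcatGOF enteroids. Most of this was Wt1 except in BcatGOF replicate 2, where Msln was at 5.45 FPKM and Wt1 at 3.29 FPKM. Msln was at 0 to 0.0243 FPKM in cells grown alone and at 5.21 FPKM in wild-type replicate 3. Upk3b was at or near 0 throughout. The 15 epithelial markers summed to between 2.98 and 4.42 FPKM in the 3 mesenchyme-only libraries. They summed to 16.9, 5.48 and 128.5 FPKM in wild-type coculture replicates 1, 2 and 3, and to 31.2 and 120.9 FPKM in BcatGOF coculture replicates 1 and 2. Epcam was at 0 to 0.0581 FPKM in cells grown alone, 5.78 FPKM in wild-type replicate 3 and 5.63 FPKM in BcatGOF replicate 2. On the first principal component, which held 40.3% of the variance, BcatGOF replicate 2 stood apart at 63.6 with the other 7 libraries between -38.9 and 25.4. The part of these marker differences in the results was not tested.

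In cells grown alone the lysyl oxidases were the most abundant of the 3 classes, with a summed level of 567.4 ± 137 FPKM (SD, n = 3). The lysyl hydroxylases summed to 244.4 ± 55.8 FPKM and the prolyl 4-hydroxylase alpha subunits to 149 ± 41.9 FPKM. Single genes were ordered by mean level as Loxl1 at 251.2 FPKM, Loxl2 at 174.8, Lox at 120.4, Plod2 at 114.6, P4ha1 at 93.5, Plod3 at 77.3, P4ha2 at 55.5, Plod1 at 52.5, Loxl3 at 18.5 and Loxl4 at 2.56 FPKM. Of neighbours in this order, the ranges over the 3 libraries were separate between Plod3 and P4ha2, between Plod1 and Loxl3 and between Loxl3 and Loxl4, and all other neighbours overlapped. Loxl1, a lysyl oxidase known for its action on elastin, was also the most abundant member in both coculture groups, and Loxl3 and Loxl4 were the 2 least abundant in all 3 groups.

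**Figure D1:**
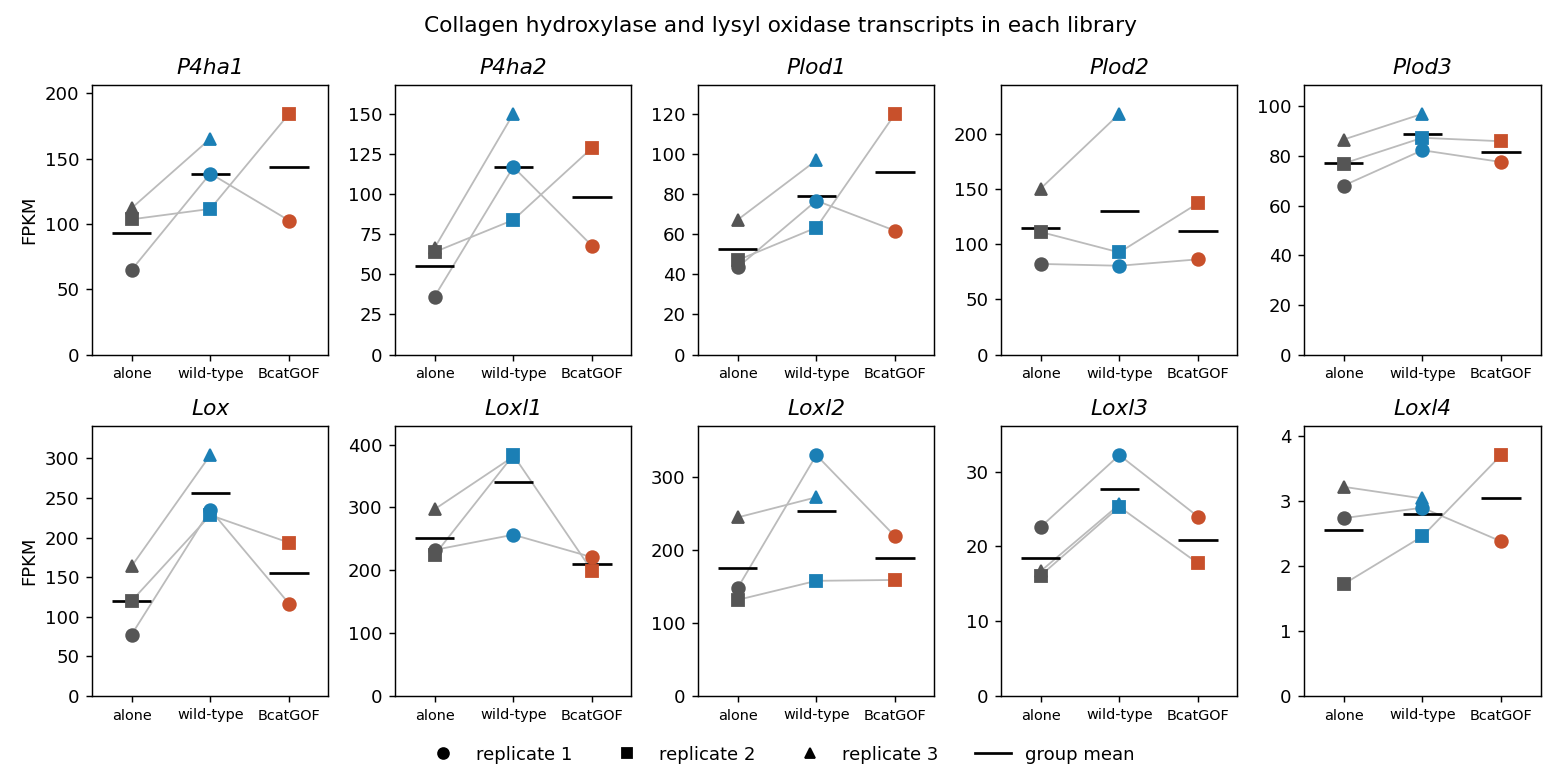
FPKM of each of the 10 genes (vertical axes from 0, one panel per gene) in cells grown alone, with wild-type enteroids and with BcatGOF enteroids; symbols give the replicate number, grey lines join libraries of equal number and black bars are group means. Lox, Loxl3 and P4ha2 lay above all cells grown alone in all 3 wild-type cocultures, and 7 of the 10 genes (all but Loxl1, Loxl2 and Loxl3) were higher in replicate 2 than in replicate 1 with BcatGOF enteroids.

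P4ha1 and P4ha2 encode alternative catalytic subunits that pair with the protein disulfide isomerase P4hb. P4ha2 was at 36.2, 63.9 and 66.4 FPKM in mesenchyme-only replicates 1, 2 and 3. With wild-type enteroids it was at 116.9, 83.9 and 150 FPKM in the same order, and with BcatGOF enteroids at 67.8 and 128.8 FPKM. Every coculture library lay above every library of cells grown alone. P4ha1 was at 64.8, 103.6 and 112.1 FPKM in cells grown alone. It was at 138.7, 111.6 and 165.4 FPKM with wild-type enteroids and at 102.7 and 184.4 FPKM with BcatGOF enteroids. Wild-type replicate 2 and BcatGOF replicate 1 were within the range of cells grown alone.

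The balance of the 2 subunits differed between the groups within each library. P4ha2 made up 35.8%, 38.2% and 37.2% of the P4ha1 and P4ha2 sum in mesenchyme-only replicates 1, 2 and 3. Its share was 45.7%, 42.9% and 47.6% in the wild-type cocultures and 39.8% and 41.1% in the BcatGOF cocultures. The 3 groups did not overlap in this share, which does not depend on the scaling of a library. No test was run on it, and how often the shares of other gene pairs separate the groups was not counted.

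The 3 lysyl hydroxylases had different profiles. Plod1, which hydroxylates lysines of the helical part of collagen, was at 43.4, 47 and 67.1 FPKM in cells grown alone. It was at 76.7, 63.3 and 96.8 FPKM with wild-type enteroids, and at 61.7 and 119.9 FPKM with BcatGOF enteroids. The highest library of all 8 was BcatGOF replicate 2, and the wild-type range overlapped cells grown alone only through wild-type replicate 2. Plod2, which hydroxylates the telopeptide lysines used in stable cross-links, was at 82.2, 111.2 and 150.5 FPKM in cells grown alone. It was at 80.6, 92.7 and 218.3 FPKM with wild-type enteroids and at 86.4 and 137.3 FPKM with BcatGOF enteroids. Libraries of replicate 3 were the highest in both groups that have one, and wild-type replicates 1 and 2 were slightly below their mesenchyme-only counterparts. Plod3, which also has glycosyltransferase activity, varied least, between 68.1 and 97 FPKM over all 8 libraries, a coefficient of variation of 10.5% against 21.7% to 43.4% for the other members.

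Promoter sequence from RefSeq (GRCm38.p6, 250 bases before to 50 after the start) was found for 5 of the 10 genes. The 4 hydroxylase promoters among them are shown because P4ha1, P4ha2 and Plod1 had similar profiles across the cultures while Plod3 varied least. Capitals mark ACGTG or its reverse complement CACGT, the core of the element bound by hypoxia-inducible factors, searched on both strands.
P4ha1, chr10:59323046-59323345, plus strand: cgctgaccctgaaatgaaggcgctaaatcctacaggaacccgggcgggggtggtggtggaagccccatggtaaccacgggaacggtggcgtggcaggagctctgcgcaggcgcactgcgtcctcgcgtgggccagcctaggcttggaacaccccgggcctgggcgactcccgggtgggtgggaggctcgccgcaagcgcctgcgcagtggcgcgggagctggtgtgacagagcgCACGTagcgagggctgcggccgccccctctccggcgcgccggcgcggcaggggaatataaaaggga
P4ha2, chr11:54100674-54100973, plus strand: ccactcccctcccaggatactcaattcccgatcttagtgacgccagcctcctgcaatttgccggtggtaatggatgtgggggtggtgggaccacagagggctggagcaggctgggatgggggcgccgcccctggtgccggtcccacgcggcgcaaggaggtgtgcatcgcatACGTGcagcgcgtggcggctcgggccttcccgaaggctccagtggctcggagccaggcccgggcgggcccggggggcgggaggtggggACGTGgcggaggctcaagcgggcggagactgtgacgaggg
Plod1, chr4:147936727-147937026, minus strand: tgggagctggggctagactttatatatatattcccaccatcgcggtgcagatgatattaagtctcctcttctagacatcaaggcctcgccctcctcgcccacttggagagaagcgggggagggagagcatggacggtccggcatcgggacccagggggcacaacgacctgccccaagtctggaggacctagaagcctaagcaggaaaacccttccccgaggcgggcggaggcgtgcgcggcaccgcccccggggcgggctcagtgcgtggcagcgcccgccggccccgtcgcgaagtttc
Plod3, chr5:136986769-136987068, plus strand: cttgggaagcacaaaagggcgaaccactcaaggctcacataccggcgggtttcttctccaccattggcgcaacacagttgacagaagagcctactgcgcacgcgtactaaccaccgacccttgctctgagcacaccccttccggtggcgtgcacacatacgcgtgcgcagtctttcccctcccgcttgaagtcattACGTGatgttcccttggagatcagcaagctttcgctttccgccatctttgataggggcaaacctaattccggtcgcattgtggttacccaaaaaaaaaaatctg
ACGTG was present once in P4ha1 (its leftmost base at -16 from the start, on the minus strand), 2 times in P4ha2 (at -78 and 11) and once in Plod3 (at -54). No match to ACGTG stood in the 300 bases of Plod1 or of Loxl4, which leaves other forms of the core unread. Of the 32851 mouse promoters of the same length, 19.6% held a match. The SMAD box CAGACA, searched the same way, was in 0 of the 5 promoters and in 21.0% of all promoters. These matches are descriptions of the letters in these windows.

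Lox, the founding lysyl oxidase, was at 77.3, 119.9 and 163.8 FPKM in mesenchyme-only replicates 1, 2 and 3. It was at 235.1, 228.4 and 304.3 FPKM with wild-type enteroids and at 116.5 and 193.6 FPKM with BcatGOF enteroids. All wild-type cocultures lay above the other 5 libraries. Loxl3 was at 22.6, 16.1 and 16.7 FPKM in cells grown alone, at 32.2, 25.3 and 25.6 FPKM with wild-type enteroids and at 24 and 17.7 FPKM with BcatGOF enteroids. Here too the 3 wild-type cocultures were the 3 highest libraries. In GENCODE M21 an exon of Loxl3 overlaps Htra2 on the opposite strand, as does one of Plod3 with Znhit1, and without a stated strand setting reads of such pairs cannot be told apart.

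Loxl1 was at 232.3, 224.4 and 297 FPKM in cells grown alone and at 256.5, 383.3 and 380.9 FPKM with wild-type enteroids. With BcatGOF enteroids it was at 220.7 and 199 FPKM, below every library of both other groups. Loxl2, which also acts on basement membrane collagen IV, was at 147.9, 131.7 and 244.9 FPKM in cells grown alone. It was at 330.5, 157.9 and 272.6 FPKM with wild-type enteroids and at 219 and 159.1 FPKM with BcatGOF enteroids, and the 3 groups overlapped. Loxl4 lay between 1.72 and 3.71 FPKM in the 8 libraries, with overlapping groups.

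**Figure D2:**
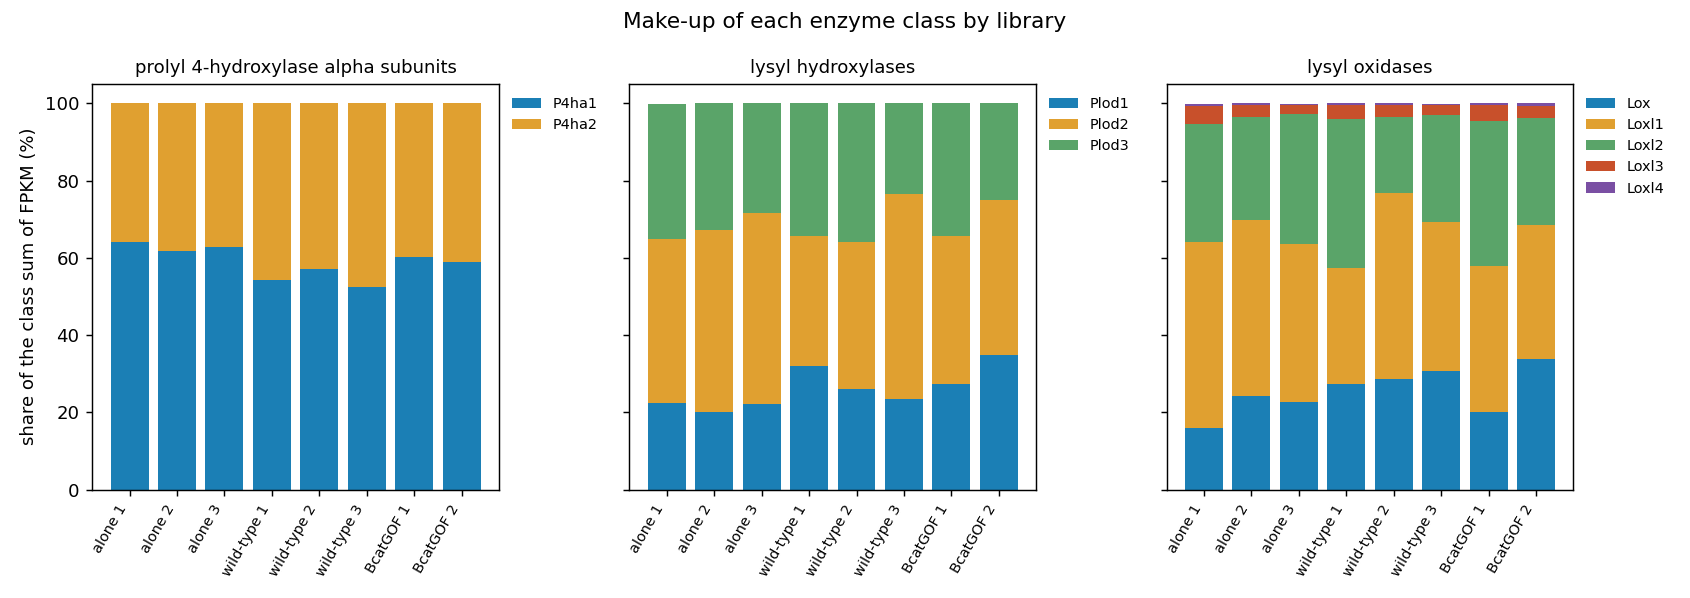
Share (%) of each gene in the summed FPKM of its class, one stacked bar per library, for the prolyl 4-hydroxylase alpha subunits, the lysyl hydroxylases and the lysyl oxidases. P4ha2 held 35.8% to 38.2% of its class in cells grown alone and 42.9% to 47.6% with wild-type enteroids, and Lox held 16% to 24.3% and 27.4% to 30.8% of its class in the same groups.

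The make-up of the other classes was read in the same way, again with no test and no count over other genes. Lox held 16%, 24.3% and 22.6% of the lysyl oxidase sum in mesenchyme-only replicates 1, 2 and 3. Its share was 27.4%, 28.6% and 30.8% in the wild-type cocultures, with no overlap, and 20% and 33.8% in the BcatGOF cocultures, one inside and one above the range of cells grown alone. Plod1 held 20% to 22.4% of the lysyl hydroxylase sum in cells grown alone, 23.5% to 32% with wild-type enteroids and 27.3% and 34.9% with BcatGOF enteroids. The shares of Loxl1, Loxl2 and Plod2 spread more widely among the wild-type cocultures than the groups differed, with SDs of 9.1, 9.45 and 10.2 percentage points.

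Setting wild-type coculture against cells grown alone asks how normal epithelium alters stromal expression of these enzymes. All 10 genes had a log2 fold change above 0, against 53.8% of all genes tested, and their median was 0.55 against 0.019 over all genes. Lox had the highest log2 fold change, 1.13 (SE 0.32, 95% interval 0.39 to 1.88), followed by P4ha2 at 1.07 (SE 0.35, 0.26 to 1.88) and P4ha1 and Plod1 at 0.58 each (SE 0.31 and 0.30). Loxl3 was at 0.57 (SE 0.19, 0.12 to 1.01), Loxl2 at 0.52 (SE 0.35), Loxl1 at 0.42 (SE 0.23), Plod3 at 0.20 (SE 0.16), Loxl4 at 0.11 (SE 0.22) and Plod2 at 0.081 (SE 0.42). These folds are on the log2(FPKM + 1) scale, which understates differences of a gene as low as Loxl4.

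None of the 10 passed an adjusted p of 0.05 in limma, where 1 of 12927 genes, the small nucleolar RNA Snora15, was lower and did (0.00774%). The adjusted p was 0.80 for Lox, 0.84 for P4ha2 and 0.86 for Loxl3 in limma. At an unadjusted p under 0.05, 3 members were higher (Lox, P4ha2 and Loxl3), against 2.29% of all genes. The same 3 were those whose groups did not overlap, against 6.35% of all genes. Libraries of equal replicate number deviated together, so the number was also fitted as a block. With the block 5 members were higher at an unadjusted p under 0.05, namely Lox, Loxl3, P4ha2, Plod1 and P4ha1, against 5.04% of all genes, while 2 genes of the table (0.0155%) and no member passed the adjusted threshold (lowest adjusted p = 0.22, limma, Loxl3).

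Within equal replicate numbers, 8 of the 10 genes were higher with wild-type enteroids in all 3 pairs, against 20.6% of all genes. The exceptions were Plod2, at 0.98, 0.83 and 1.45 times its mesenchyme-only level in replicates 1, 2 and 3, and Loxl4, at 1.06, 1.43 and 0.95 times. Lox was at 3.04, 1.90 and 1.86 times, and P4ha2 at 3.23, 1.31 and 2.26 times. Loxl3 was the most even, at 1.43, 1.57 and 1.54 times. Wild-type replicate 3 was the library with the most epithelial transcripts. Without it the log2 fold change was 1.00 for Lox, 0.87 for P4ha2 and 0.62 for Loxl3, and that of Plod2 turned from 0.081 to -0.36. In the replicate 2 pair the epithelial markers of the coculture summed to 5.48 FPKM. There P4ha1 was at 1.08, Plod1 at 1.35, Loxl2 at 1.20, Plod3 at 1.13 and Loxl1 at 1.71 times the mesenchyme-only level. P4ha1, P4ha2, Plod1 and Plod2 had their lowest ratio in that pair, while Loxl1, Loxl3 and Loxl4 had their highest. Lox, Loxl2 and Plod3 were lowest in the replicate 3 pair, Loxl2 at 1.11 times. Fewer expressing cells and less RNA per cell cannot be told apart in such bulk libraries.

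**Figure D3:**
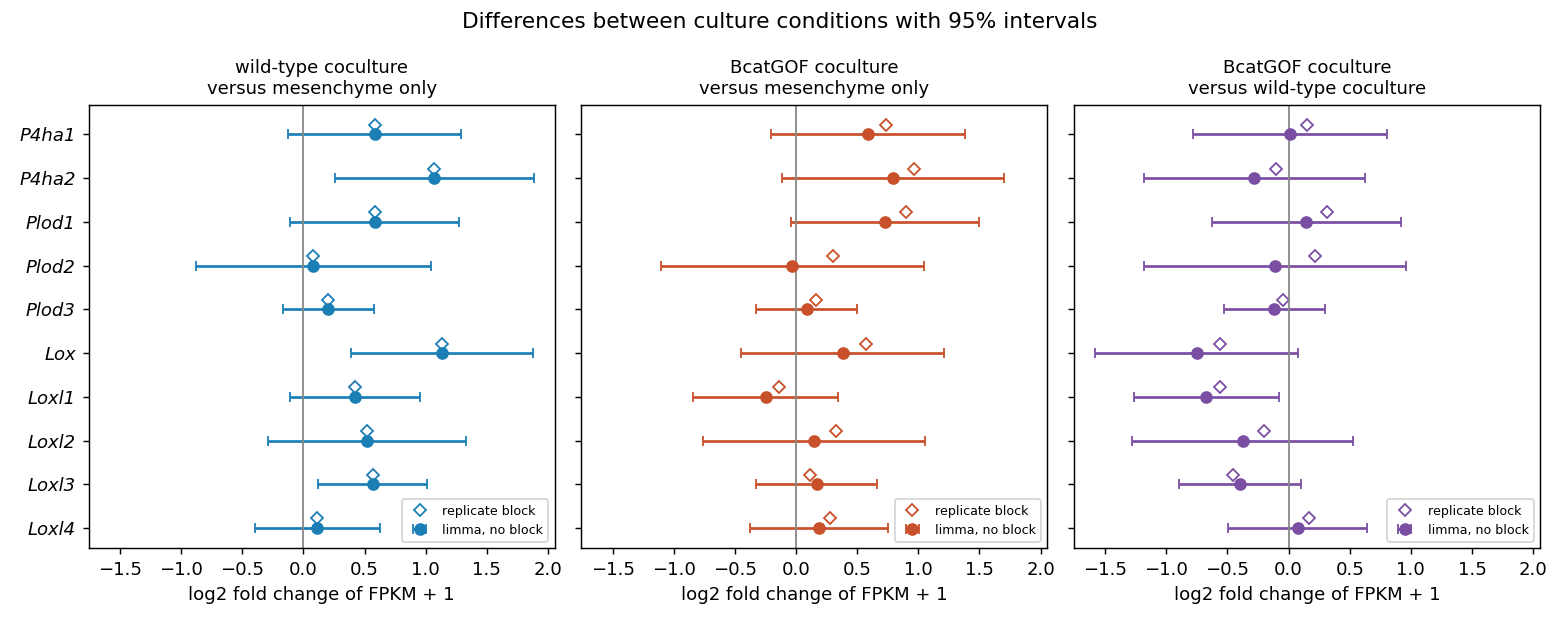
Log2 fold change of FPKM + 1 (horizontal axis) with its 95% interval from limma for the 10 genes in the 3 comparisons; open diamonds are estimates with the replicate number as a block. In wild-type coculture all estimates lie above 0 and the intervals of Lox, P4ha2 and Loxl3 exclude 0 before adjustment, and in BcatGOF against wild-type coculture only that of Loxl1 does.

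Setting BcatGOF coculture against cells grown alone asks what epithelium with active β-catenin does to the same genes. The 3 genes with the highest log2 fold changes were all hydroxylases, P4ha2 at 0.79 (SE 0.39), Plod1 at 0.73 (SE 0.33) and P4ha1 at 0.59 (SE 0.34), each with a 95% interval that held 0. Among the lysyl oxidases Lox was at 0.38 (SE 0.36), Loxl4 at 0.19 (SE 0.25), Loxl3 at 0.17 (SE 0.21), Loxl2 at 0.15 (SE 0.39) and Loxl1 at -0.25 (SE 0.26). Plod3 was at 0.086 (SE 0.18) and Plod2 at -0.030 (SE 0.46). In all, 8 of 10 were above 0, against 52.4% of all genes, with a median of 0.18 against 0.014.

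None passed the adjusted threshold, which only Snora15 of the 12927 genes did (0.00774%), and the lowest adjusted p of a member was 0.89 (Plod1, limma). Without the block 0 members were higher at an unadjusted p under 0.05, against 2.88% of all genes, and with it 4 were (Plod1, P4ha2, P4ha1 and Lox), against 4.17%. P4ha2 was the 1 member whose BcatGOF libraries both lay above the cells grown alone, against 8.49% of genes, and Loxl1 the 1 member with both below, against 7.82%. Within equal replicate numbers P4ha2 was at 1.87 and 2.02 times its mesenchyme-only level, P4ha1 at 1.58 and 1.78 times and Plod1 at 1.42 and 2.55 times. In these pairs 8 of 10 genes were higher in both, against 28.9% of all genes. Loxl1 was the 1 member lower in both, at 0.95 and 0.89 times, against 28.5%.

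Set against all 3 libraries of cells grown alone, the sizes differed between the BcatGOF libraries. Without BcatGOF replicate 2 the log2 fold changes were 0.33 for P4ha2, 0.25 for Plod1, 0.17 for P4ha1 and 0.019 for Lox. Without BcatGOF replicate 1, with the lone library assumed to vary like the other groups, they were 1.25, 1.20, 1.01 and 0.75, with no adjusted p under 0.12 (limma), although 198 genes of the table then passed. Within equal replicate numbers the pairs were closer for P4ha2 (log2 differences of 0.89 and 1.00), P4ha1 (0.66 and 0.83) and Lox (0.59 and 0.69), and further apart for Plod1 (0.50 and 1.33). Epithelial markers summed to 120.9 FPKM in BcatGOF replicate 2 against 31.2 FPKM in replicate 1, and their part in these values was not tested.

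The authors' deposited table of this comparison lists 2184 genes, 925 of them higher and 1259 lower in BcatGOF coculture, up to an adjusted p of 0.015. It holds 3 of the 10 members, all higher, against 6.07% of the tested genes listed as higher. In the authors' deposited table Plod1 has a log2 fold change of 1.47 (SE 0.30, adjusted p = 2.15e-05). P4ha2 has one of 1.42 (SE 0.34, adjusted p = 0.000526) and P4ha1 one of 1.04 (SE 0.29, adjusted p = 0.00354) in the authors' deposited table. From the FPKM, the log2 ratio of BcatGOF replicate 2 to the mesenchyme-only mean was 1.19 for Plod1, 1.21 for P4ha2 and 0.98 for P4ha1, and that of replicate 1 was 0.23, 0.29 and 0.14. The libraries and design behind that table are not stated in the labels or headers. No lysyl oxidase is listed in the authors' deposited table.

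The comparison of BcatGOF with wild-type coculture asks what the β-catenin allele adds to the presence of enteroids. Of the 5 lysyl oxidases 4 had a log2 fold change below 0, Lox at -0.75 (SE 0.36, 95% interval -1.58 to 0.080), Loxl1 at -0.67 (SE 0.26, -1.27 to -0.076), Loxl3 at -0.40 (SE 0.21, -0.90 to 0.098) and Loxl2 at -0.37 (SE 0.39). In all, 3 of the 10 members were above 0, against 51.4% of all genes, with a median of -0.20 against 0.0077. Both BcatGOF libraries lay below all 3 wild-type cocultures for Lox, Loxl1 and Loxl3, 3 of 10 members against 7.64% of all genes. The hydroxylases were closer to 0 and had members on both sides, with P4ha1 at 0.0088 (SE 0.34), Plod1 at 0.15 (SE 0.33), Plod2 at -0.11 (SE 0.46), Plod3 at -0.12 (SE 0.18) and P4ha2 at -0.28 (SE 0.39), and Loxl4 was at 0.074 (SE 0.25). Their 95% intervals reached from -0.78 to 0.80 for P4ha1 and from -0.63 to 0.92 for Plod1.

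No gene of the table passed the adjusted threshold in this comparison (0%, limma), and 373 genes had an unadjusted p under 0.05 (2.89%), among them 1 member, Loxl1. With the replicate block Loxl1 and Loxl3 were lower at an unadjusted p under 0.05, 2 members against 2.85% of all genes, and 0 genes passed the adjusted threshold. Within equal replicate numbers Lox was at 0.50 and 0.85 times its wild-type coculture level, Loxl1 at 0.86 and 0.52 times and Loxl3 at 0.74 and 0.70 times. Against all 3 wild-type cocultures the sizes for Lox, Loxl3 and Loxl2 depended on the BcatGOF library, and that for Loxl1 less so. Without BcatGOF replicate 2 the log2 fold change was -1.12 for Lox, -0.60 for Loxl1, -0.19 for Loxl3 and -0.15 for Loxl2, and without BcatGOF replicate 1 it was -0.39, -0.75, -0.61 and -0.60. Lox, Loxl1, Loxl3 and Plod3 were lower in both pairs, 4 of 10 against 24.5% of all genes, and Plod2 was the 1 member higher in both, against 22.2%. Plod1, P4ha1 and P4ha2 split by pair, at 0.81, 0.74 and 0.58 times in replicate 1 and at 1.90, 1.65 and 1.54 times in replicate 2. Both comparisons with mesenchyme only share the same 3 control libraries, so their values are set side by side here without a measure of likeness.

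Fibrillar collagens, the main substrates of these enzymes, varied more between libraries than the sum of the 10 enzymes, which ran from 777.6 to 1714 FPKM. The 11 fibrillar collagen genes summed to 5387, 5078 and 12290 FPKM in mesenchyme-only replicates 1, 2 and 3. They summed to 9867, 6883 and 14680 FPKM in the wild-type cocultures and to 7623 and 2674 FPKM in the BcatGOF cocultures, the last being the lowest library. The log2 of the prolyl 4-hydroxylase sum over the collagen sum was -5.74, -4.92 and -6.11 in cells grown alone. It was -5.27, -5.14 and -5.54 in the wild-type cocultures, -5.48 in BcatGOF replicate 1 and -3.09 in BcatGOF replicate 2. For all 10 enzymes together this log2 ratio was between -3.35 and -2.48 in 7 libraries and -1.12 in BcatGOF replicate 2. The 1 library with the lowest collagen sum was thus the one with the highest enzyme sum per collagen. The collagen sum is the denominator of this ratio, so a low one raises it. The sum of the 10 enzymes in BcatGOF replicate 2 was 1230 FPKM, inside the range of the other libraries. Epithelial markers and hypoxia targets were also high in that library, and their part in this ratio was not tested.

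**Figure D4:**
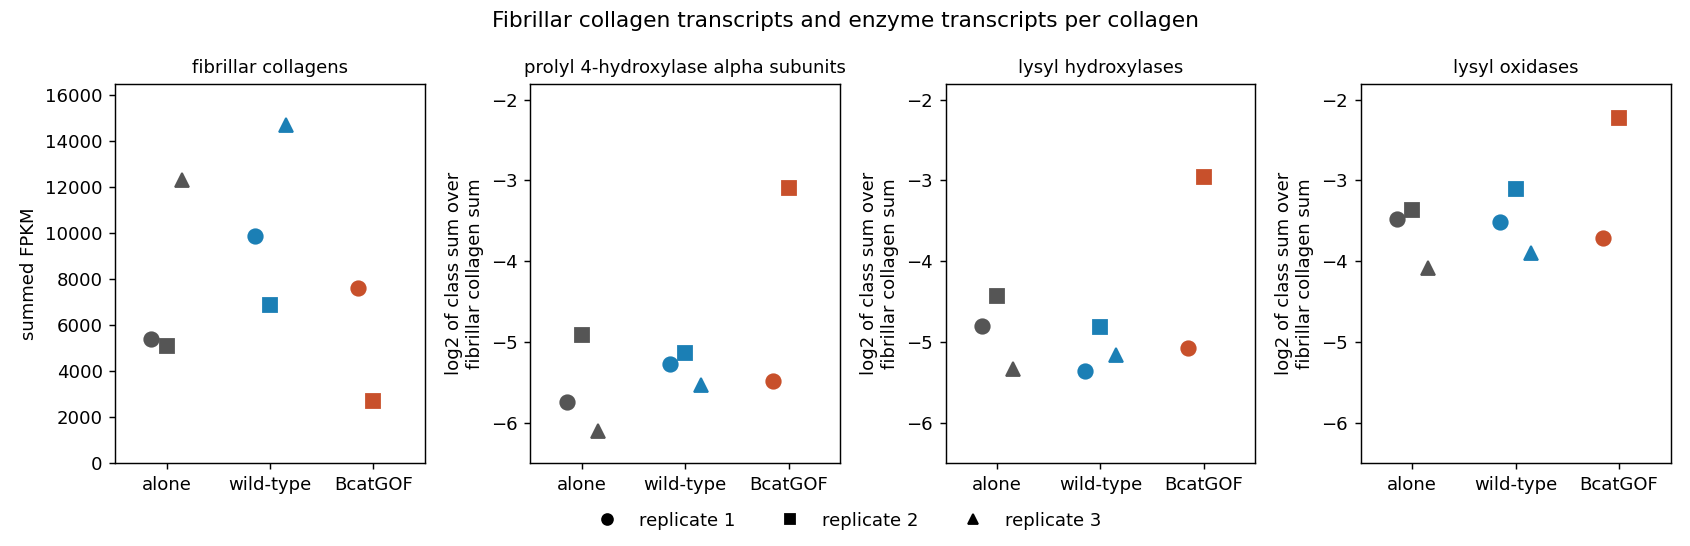
Summed FPKM of fibrillar collagen genes (left, linear axis from 0) and log2 of the summed FPKM of each enzyme class over that collagen sum, one point per library by group and replicate number. BcatGOF replicate 2 had 2674 FPKM of fibrillar collagens and stood above all other libraries in all 3 ratios, at -3.09, -2.96 and -2.22.

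Of the fibrillar collagens, 7 of 10 tested genes had a log2 fold change above 0 in wild-type coculture and 2 of 10 in BcatGOF coculture, against 53.8% and 52.4% of all genes, with medians of 0.43 and -0.28 and no gene past the adjusted threshold in limma. Col1a1, the alpha-1 chain of type I collagen, was at 2215 ± 1540 FPKM in cells grown alone (SD, n = 3), 4240 ± 1370 FPKM with wild-type enteroids (n = 3) and 1645 ± 767 FPKM with BcatGOF enteroids (n = 2). Col5a3, a chain of type V collagen, was at 23.7 ± 5.98, 61.4 ± 1.81 and 42.7 ± 6.97 FPKM in the same order. Col3a1 had a log2 fold change of -0.037 (SE 0.62) in wild-type and -0.93 (SE 0.69) in BcatGOF coculture, and Col1a2 one of 0.57 (SE 0.56) and -0.84 (SE 0.63). Of these 10, the authors' deposited table lists 4. Col3a1 (log2 fold change -1.81), Col1a2 (-1.64) and Col24a1 (-1.11) are among its 1259 lower genes, and Col5a3 (1.22) is listed as higher. Of all tested genes 6.07% are listed as higher, and the share listed as lower was not counted.

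Other proteins of the collagen-modifying machinery were mostly higher with wild-type enteroids, 13 of 14 tested against 53.8% of all genes, with a median log2 fold change of 0.30. Groups did not overlap for 5 of them, against 6.35% of all genes, with none past the adjusted threshold in limma. Fkbp10, a chaperone needed for telopeptide lysyl hydroxylation, was at 127.9, 126 and 155.5 FPKM in cells grown alone and at 191.3, 200 and 208.2 FPKM with wild-type enteroids. With BcatGOF enteroids it was at 135.4 and 163.8 FPKM. P3h1, a prolyl 3-hydroxylase, had log2 fold changes of 0.55 (SE 0.18) in wild-type and 0.40 (SE 0.21) in BcatGOF coculture. P4hb, the partner subunit of P4ha1 and P4ha2, was at 433 ± 28.3 FPKM in cells grown alone, 544.2 ± 6.8 FPKM with wild-type enteroids and 464.9 and 731.2 FPKM with BcatGOF enteroids. Serpinh1, a collagen chaperone, was at 0.32 (SE 0.24) in wild-type and -0.095 (SE 0.27) in BcatGOF coculture on the log2 fold scale. In BcatGOF coculture 10 of 14 were above 0, against 52.4% of all genes, with a median of 0.13, where Tmem38b, an endoplasmic reticulum ion channel, was at 0.81 (SE 0.63) and P4ha3 at 0.44 (SE 0.52). The authors' deposited table lists 3 of these 14, P4hb, P3h1 and P3h4, all higher, against 6.07% of tested genes.

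The next genes process procollagen outside the cell. In BcatGOF coculture 0 of 6 tested were above 0, against 52.4% of all genes, with a median log2 fold change of -0.54 and none past the adjusted threshold in limma, and in wild-type coculture 2 of 6 were, with a median of -0.11. Bmp1, a protease that cleaves collagen C-propeptides and activates Lox, was at 166.4, 170.9 and 178.8 FPKM in cells grown alone. It was at 206.1, 207.5 and 218.6 FPKM with wild-type enteroids and at 180.7 and 129.3 FPKM with BcatGOF enteroids. Adamts2, the procollagen N-proteinase, was at 39.5 and 8 FPKM with BcatGOF enteroids against 63.9 ± 35.3 FPKM in cells grown alone. Adamts3 had log2 fold changes of -0.27 (SE 0.58) in wild-type and -0.66 (SE 0.65) in BcatGOF coculture, and Pcolce, which enhances Bmp1, was at -0.026 (SE 0.34) and -0.50 (SE 0.38). Of these 6, the authors' deposited table lists 4, all among its 1259 lower genes. They are Adamts2 (log2 fold change -2.51), Adamts3 (-2.08), Adamts14 (-1.84) and Pcolce (-1.07). What share of all tested genes is listed as lower was not counted, so these 4 are a description.

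Matrix proteins that bind lysyl oxidases or serve as their substrates had 6 of 9 members above 0 in wild-type and 5 of 9 in BcatGOF coculture, against 53.8% and 52.4% of all genes, with median log2 fold changes of 0.18 and 0.070 and none past the adjusted threshold in limma. Elastin (Eln), a substrate of Lox and Loxl1, was at 8.30, 18.8 and 59.5 FPKM in cells grown alone and at 28.4, 259.4 and 366.8 FPKM with wild-type enteroids. It was at 17.2 and 29.3 FPKM with BcatGOF enteroids, and was higher in each wild-type pair. Periostin (Postn), which binds Bmp1 and collagen, was at 203, 144 and 248.2 FPKM in cells grown alone, at 529.7, 568 and 485.8 FPKM with wild-type enteroids and at 262.8 and 96.8 FPKM with BcatGOF enteroids. The log2 fold changes of Fn1 in wild-type and BcatGOF coculture were 0.73 (SE 0.28) and 0.53 (SE 0.31). Those of Sparc were 0.35 (SE 0.30) and -0.51 (SE 0.33). Fbln5, which bridges Loxl1 to elastin, was at -0.95 (SE 0.65) and -1.89 (SE 0.72), and Thbs1 at -0.26 (SE 0.41) and -1.04 (SE 0.46). Of these 9, the authors' deposited table lists 3, all among its 1259 lower genes. They are Fbln5 (log2 fold change -4.16), Thbs1 (-2.17) and Sparc (-0.80). Here too the share of all tested genes listed as lower was not counted.

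P4ha1, P4ha2, Plod1, Plod2, Lox and Loxl2 are also known as targets of hypoxia-inducible factors, so 14 other targets were read beside them. These had a median log2 fold change of 0.71 in wild-type coculture (13 of 14 above 0) and of 1.09 in BcatGOF coculture (14 of 14 above 0), against 53.8% and 52.4% of all genes above 0, with none past the adjusted threshold in limma. Relative to the mesenchyme-only mean, the mean log2 level of this list was -0.26, 0.30 and -0.037 in mesenchyme-only replicates 1, 2 and 3. It was 0.86, 0.34 and 0.82 in wild-type replicates 1, 2 and 3, and 0.63 and 1.54 in BcatGOF replicates 1 and 2. Wild-type replicate 2 was thus near its mesenchyme-only counterpart, and 7 of the 14 targets, among them Ankrd37, Bnip3 and Pgk1, were below it in that pair. Vegfa was at 116.3, 160.7 and 143.5 FPKM in cells grown alone, at 270.1, 284.6 and 315.6 FPKM with wild-type enteroids and at 254.1 and 659.5 FPKM with BcatGOF enteroids. In wild-type and BcatGOF coculture the log2 fold change of Ankrd37 was 1.02 (SE 0.46) and 1.97 (SE 0.51), that of Egln3 1.15 (SE 0.44) and 1.46 (SE 0.49) and that of Bnip3 0.96 (SE 0.47) and 1.55 (SE 0.52). For Ldha the same values were 0.71 (SE 0.50) and 1.18 (SE 0.56), and for Pgk1 0.76 (SE 0.42) and 1.14 (SE 0.47). BcatGOF replicate 2 was the highest library for this list and for P4ha1 and Plod1, while P4ha2, Lox, Loxl2 and Plod2, 4 of the 6 members named, were not highest there. The authors' deposited table lists 12 of the 14 targets as higher, against 6.07% of tested genes.

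Over the 8 libraries, 44 of the 45 pairs of members had a positive Pearson correlation of log2(FPKM + 1), with a median of 0.48 and a range of -0.34 to 0.97. P4ha1 and P4ha2 correlated at 0.97, and Plod1 at 0.94 with P4ha1. Lox correlated at 0.93 with Plod3, at 0.92 with P4ha2 and at 0.52 with Plod2. Plod3, although it varied least, correlated at 0.85 with P4ha2 and at 0.825 with P4ha1. Of the 8998 other genes with a mean of at least 5 FPKM, the one most like P4ha1 was Ndufa4l2 (0.98), that most like P4ha2 was Fstl3 (0.98), that most like Plod1 Smg6 (0.98), that most like Plod2 Pigv (0.96) and that most like Plod3 Klhdc3 (0.96). For Lox it was Gpr153 (0.97), for Loxl1 Sardh (0.97), for Loxl2 Zfp9 (0.94), for Loxl3 Usp22 (0.98) and for Loxl4 Boc (0.97). These correlations are descriptions over 8 libraries that share groups and replicate numbers. How many pairs of other genes correlate positively was not counted.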

How the data were processed

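RNA of 8 mouse stromal cell libraries was measured by poly-A sequencing. The authors deposited FPKM values for every gene and library, and the absolute depth of the libraries is unknown. The authors' deposited table for BcatGOF coculture against mesenchyme only gives log2 fold changes with standard errors, raw and adjusted p-values, a mean of normalised counts (a signal scaled by size factors) and a test statistic used here as a score only. Per the submitters' processing notes, kallisto 0.46.1, DESeq2 1.40.1 and the mm9 build were used, with no role given. No label or header says how FPKM was computed.

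Genes reaching 1 FPKM in 2 or more libraries were fitted as log2(FPKM + 1) with 3 group means over all 8 libraries (5 residual degrees of freedom) in limma 3.58.1 (R 4.3.3, trend and robust options, two-sided). P-values were adjusted over the 12927 genes by the Benjamini-Hochberg method, and a gene was called at an adjusted p under 0.05. The script was tested on simulated data. The lists and members were chosen with earlier results of these data known, and the lists serve as descriptions. From each list beside the members, the 2 most abundant genes and the 2 with the largest absolute fold change in a comparison are named, and other list genes were named after their values were seen. Libraries of equal replicate number in different groups deviated together (r of 0.301 to 0.554 in 7 pairs, against -0.483 to 0.208 in 14 other pairs). The values were centred within each group first, which pushes pairs of other numbers the opposite way. With 2 BcatGOF libraries they mirror each other, as 0.483 and -0.483 for mesenchyme-only replicate 2. The 14 pairs are therefore not an independent contrast. The sample titles carry the replicate number and do not say that equal numbers belong together. The number was fitted as a block in an alternative. The other alternatives were pseudocounts of 0.1 and 0.5, no filter or a mean of 5 FPKM, quantile or median-ratio scaling, fits of only the groups compared, and leaving out each library. Leaving out wild-type replicate 3 and BcatGOF replicate 2 together was added after seeing the data. Motifs were searched in RefSeq promoters by symbol. Figures used matplotlib 3.10.9.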

Additional observations from a re-analysis of the deposited data

Results flagged for a closer look

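Loxl1 lay on opposite sides of the mesenchyme-only mean in the 2 kinds of coculture, although that difference did not pass the adjusted threshold. All 3 wild-type cocultures lay above the mesenchyme-only mean, by 0.41 on the log2 scale on average, and both BcatGOF cocultures lay below it, at -0.26. The difference of -0.675 between these was tested directly as the comparison of the 2 cocultures, where the log2 fold change was -0.67 (SE 0.26, adjusted p = 1 in limma, unadjusted p = 0.032). All 5 coculture libraries show their group's direction, but wild-type replicate 1, at 256.5 FPKM, was within the range of cells grown alone, 224.4 to 297 FPKM. Loxl1 was flagged from these same values, so the shared direction and the unadjusted p are not independent of that choice. The share of genes with an unadjusted p under 0.05 between the cocultures was 2.89%. No group has more than 3 libraries, so single libraries were not screened for outlying values.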

How the results depend on the processing

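No member passed the adjusted threshold under any alternative run in any comparison (lowest adjusted p = 0.124 in limma, Plod1 in BcatGOF coculture without BcatGOF replicate 1). Of 30 log2 fold changes of members, 18 kept their sign in every alternative, and 26 of 507 alternative values changed sign. The replicate block changed no member's call.

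In wild-type coculture against mesenchyme only, where 1 gene was called, 0 were called with a mean of at least 5 FPKM, 2 with the replicate block, 9 with only the compared groups, 9 without wild-type replicate 3 and BcatGOF replicate 2, and 1 to 9 with single libraries left out. In BcatGOF coculture against mesenchyme only, where 1 was called, 6 were called with no filter, 0 with a mean of at least 5 FPKM, 2 without those 2 libraries and 1 to 198 with single libraries left out, 198 without BcatGOF replicate 1. Between the cocultures, where 0 were called, 4 were with no filter. The causes were not tested.

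Signs changed as follows. With libraries left out, alone or as that pair, Plod2 ranged from -0.361 to 0.352 and Loxl4 from -0.0672 to 0.249 in wild-type coculture. In BcatGOF coculture against mesenchyme only, Plod2 ranged from -0.361 to 0.301, Plod3 from -0.000197 to 0.172, Loxl2 from -0.0809 to 0.417, Loxl3 from -0.0397 to 0.376 and Loxl4 from -0.0508 to 0.428. Between the cocultures, Plod1 ranged from -0.329 to 0.619, Plod2 from -0.443 to 0.331, P4ha1 from -0.411 to 0.428, P4ha2 from -0.739 to 0.178 and Loxl4 from -0.166 to 0.313. With the replicate block, Plod2 was at 0.299 in BcatGOF coculture against mesenchyme only and 0.218 between the cocultures. With quantile normalization P4ha1 was at -0.0207 between the cocultures. Loxl4 has no value under the filter of a mean of 5 FPKM. Sequencing depth is unknown, so no counting error could be given for low genes such as Loxl4.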

Other observations

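The fold changes in the authors' deposited table were set beside the FPKM of each BcatGOF library, over the 608 listed genes with a mean of at least 20 FPKM. The authors' log2 fold change had the same sign as BcatGOF replicate 2 over the mesenchyme-only mean for 608 of 608 genes, with a median absolute difference of 0.159. For BcatGOF replicate 1 the sign was the same for 365 genes, with a median absolute difference of 1.21, and for the mean of both libraries the median absolute difference was 0.636. Genes were listed by their p in that table, so this is a description of the listed genes.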
